A study of Homo sapiens with 2 samples.

Results

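Iron handling was followed in 8 genes that take up, store, release or sense iron, represented by 23 of the 54675 probe sets of an Affymetrix U133 array and taken from a list of 10 such genes. A probe set belonged to a gene when the array annotation gave that gene as its single symbol. The other 2 listed genes were not analysed here. RNA came from PLC/PRF/5, an established human hepatocellular carcinoma line. The RNA on one array was from chemoresistant hepatospheres, spheroids of tumour cells exposed to cisplatin and doxorubicin together, and that on the other from differentiated cells, which arose from spheroids after fetal bovine serum was added and the cells had attached. Culture form, serum and attachment all differed between the arrays. Whether the differentiated cells had met the drugs is not stated in the labels. Each group had 1 array, so there is no replicate spread, no test was made, and every difference compares these 2 arrays only.

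Most cells take up iron as transferrin bound to the transferrin receptor, TFRC. Endosomal iron is reduced and passes into the cytosol through the carrier DMT1 (SLC11A2), is stored inside ferritin, a shell of heavy and light chains (FTL is the light chain), and leaves through ferroportin (SLC40A1), the only known iron exporter of animal cells. Hepatocytes also secrete hepcidin (HAMP), the hormone that blocks and degrades ferroportin, and sense transferrin-bound iron through TFR2. Iron regulatory proteins, one of which is the cytosolic aconitase ACO1, bind stem-loops called iron-responsive elements when iron is scarce. Binding stabilises the TFRC message and blocks translation of the ferritin and ferroportin messages, so ferritin control of this kind is largely invisible to an array that measures RNA.

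Hepatospheres had less message for the exporter and for a ferritin receptor, somewhat less for the transferrin receptor, and nearly equal message for the ferritin light chain. The exporter SLC40A1 read 3.81-fold lower and the ferritin receptor SCARA5 7.45-fold lower in hepatospheres. TFRC read 1.8-fold lower, and FTL, ACO1 and SLC11A2 lay within 2-fold. TFR2 and HAMP stayed below the floor on both arrays. The floor was a signal of 84.1, the higher of both arrays' median signals. A signal under it was set to it, and a gene counted as measured when it reached it on at least 1 array. Each gene's difference is the log2 signal in hepatospheres minus that in differentiated cells on its brightest probe set.

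Of the 6 genes measured, 2 were at least 2-fold lower in hepatospheres and 0 at least 2-fold higher. Over all 12766 genes measured, 8.83% were at least 2-fold lower and 12.5% at least 2-fold higher. Of the 16 probe sets measured for these genes, 4 were 2-fold lower and 0 were 2-fold higher, against 9.59% and 11.6% of 23825 probe sets with 1 gene symbol. These 4 are repeat readings of SCARA5 and SLC40A1, the same 2 genes. The median difference of the 6 genes was -0.36 on the log2 scale, beside 0.05 for all genes measured.

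Stretches of RefSeq sequence (GRCh38.p14) at the start sites of 3 of these genes are shown. The TFRC stretch, the 150 bases before the start site at chr3:196082091-196082240 on the minus strand, holds in capitals the hypoxia element core ACGTG and the TATA box TATAAA. The SLC40A1 stretch, the 150 bases before the start site at chr2:189580787-189580936 on the minus strand, belongs to the exporter that read lower and holds no searched letters. The FTL stretch, in the 5′ UTR at chr19:48965329-48965358 on the plus strand, covers bases 21 to 50 of the transcript and holds in capitals part of its iron-responsive element, from the bulged C through the upper stem to the loop bases CAGTG.
TFRC: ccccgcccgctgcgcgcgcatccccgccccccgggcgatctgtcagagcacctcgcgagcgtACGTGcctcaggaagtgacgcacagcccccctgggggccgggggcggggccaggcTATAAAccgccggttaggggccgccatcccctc
SLC40A1: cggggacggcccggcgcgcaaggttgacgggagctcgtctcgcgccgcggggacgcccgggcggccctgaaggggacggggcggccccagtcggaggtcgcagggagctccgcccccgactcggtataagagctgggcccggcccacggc
FTL: gtctgtctcttgCTTCAACAGTGtttggac

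Motifs were searched in windows of 300 bases, 250 before and 50 from the start site on, for 6 of the genes. SCARA5 and TFR2 were not searched. The core ACGTG, on either strand, lay at -88 to -84 in TFRC and at -11 to -7 in FTL, and 21.4% of 35116 windows of all genes held it. The other form of the hypoxia core, GCGTG on either strand, occurred in the FTL and ACO1 windows and in 3 of the 4 SLC11A2 windows, and 36.5% of all windows held it. TATAAA, on the sense strand, lay at -33 to -28 in TFRC and occurred in 7.33% of windows. This part of an iron-responsive element, searched as CNNNNNCAGTG on the sense strand among the transcribed bases, was found in FTL at bases 33 to 43 and in 1.71% of windows. The HAMP window held GGCGCC, the core of the BMP element (19.2% of windows), at -105 to -100 and TTCNNNGAA, a STAT site (7.66%), at -93 to -85. GGCGCC also occurred in the TFRC and ACO1 windows, and TGACNNNGC, an NRF2 element found in 13.3% of windows, in none of the 6 genes' windows. GGCGCC and TTCNNNGAA read the same on both strands, and no 2 of these motifs overlapped in the stretches shown. A match describes letters only. Bases outside the windows were not searched, so a motif not found in a window may still lie elsewhere in or near the gene.

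Among the genes of uptake, TFRC had 3 measured probe sets, and all of them read lower in hepatospheres. The brightest gave 23291 in differentiated cells against 12942 in hepatospheres, a difference of -0.85. A second bright one read 16822 and 8429, which is 1.996-fold lower and just short of 2-fold. The third read 130 and 74.1, the latter below the floor, so its -0.63 is a bound. The remaining 2 TFRC probe sets were below the floor on both arrays, one going down from 33.9 to 8.56 and one going up from 14.7 to 59.6. Of all genes measured, 12.3% had a difference as low as TFRC or lower. With the arrays centred on their medians TFRC stood at -1.10, past 2-fold, and with the mean over its probe sets at -0.52.

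SCARA5, a class A scavenger receptor that can deliver ferritin into cells without transferrin, had the largest difference of the 6 measured genes. Its brightest probe set gave 856 in differentiated cells against 115 in hepatospheres, 7.45-fold lower. Another read 844 and 96.9, 8.71-fold lower, and the third was under the floor on each array at 12.7 and 5.32. Both hepatosphere readings lay close to the floor. Only 21 of the genes measured, 0.164%, had a difference as low as that of SCARA5, counting SCARA5 itself. With the mean over all 3 probe sets it stood at -1.32 in place of -2.90. All 4 other class A scavenger receptors (MSR1, MARCO, SCARA3, COLEC12) were below the floor on both arrays, at signals of 12 to 36.3.

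SLC11A2, the carrier DMT1, read higher in hepatospheres on all 5 of its probe sets, each by less than 2-fold. The brightest gave 2351 in differentiated cells against 3494 in hepatospheres, a difference of 0.57, and the next read 893 and 1582, a difference of 0.83. The other 3 read 452 and 507, 190 and 234, and 160 and 185, with differences between 0.16 and 0.30. The probe sets thus shared a direction but differed in size. TFR2, the hepatocyte receptor that senses transferrin, read at most 57.7 on any of its 3 probe sets on either array, so no difference is given.

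The storage gene FTL was among the brightest on both arrays. Its probe sets read 42373 and 35834 in differentiated cells and 46241 and 42340 in hepatospheres, differences of 0.13 and 0.24. Both lay at or above the 99.9th percentile of signals on each array, where the highest single signal was 51583 and 59912. FTL stood at -0.13 with median centring and -0.07 with quantile normalization, so its direction depended on the scaling. Both probe sets carry names that mark shared sequence, and ferritin genes have many near-identical pseudogenes.

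The exporter SLC40A1 read lower in hepatospheres on both of its probe sets and by nearly the same amount. One gave 4475 in differentiated cells against 1176 in hepatospheres, 3.81-fold lower, and the other 650 and 167, 3.9-fold lower. All 4 readings were above the floor, and neither probe set carries a shared-sequence name. Of all genes measured, 155 (1.21%) had a difference as low as SLC40A1 or lower. HAMP, whose product acts on ferroportin protein, read 53.2 and 40 on its single probe set, below the floor on both arrays.

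ACO1, the aconitase that becomes an iron regulatory protein when it loses its iron-sulphur cluster, gave 1452 in differentiated cells against 1813 in hepatospheres, a difference of 0.32. Its other probe set read 45.5 and 111, at or above the floor in hepatospheres only, with a bound of 0.40. Both lay within 2-fold.

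**Figure D1:**
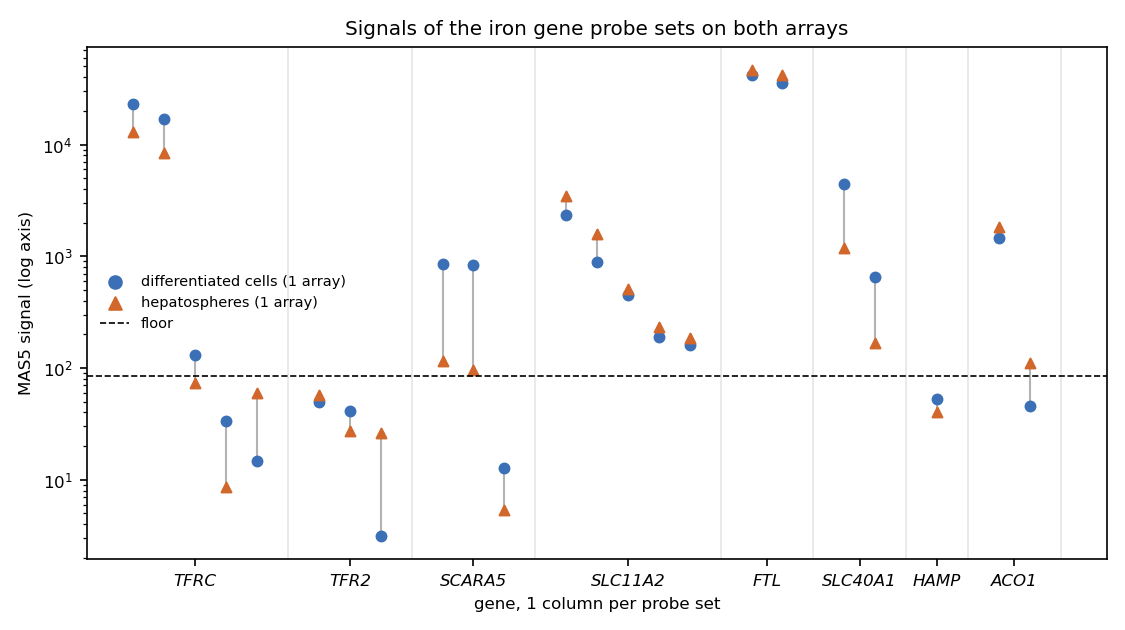
MAS5 signal (log axis) of all 23 probe sets of the 8 iron genes, 1 column per probe set, in differentiated cells (circles) and hepatospheres (triangles), 1 array each; the dashed line is the floor of 84.1. Both SLC40A1 probe sets and the 2 bright ones of SCARA5 and of TFRC read lower in hepatospheres, those of SLC11A2 and FTL slightly higher, and HAMP and TFR2 stay under the floor.

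**Figure D2:**
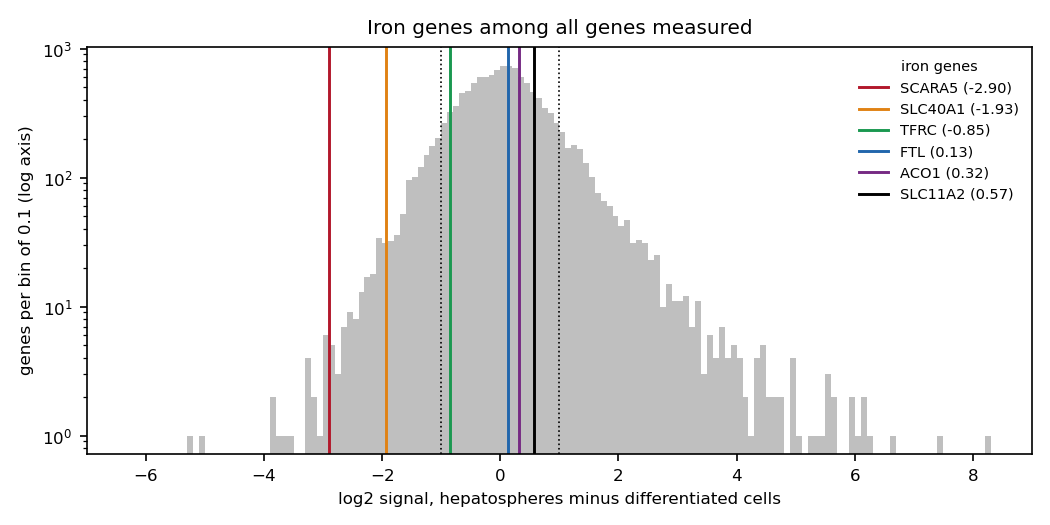
Histogram of the log2 difference, hepatospheres minus differentiated cells, for all 12766 genes measured, in bins of 0.1 with a log axis for the number of genes; coloured lines mark the 6 iron genes measured and dotted lines 2-fold. SCARA5 at -2.90 and SLC40A1 at -1.93 lie in the lower tail, TFRC at -0.85 inside the 2-fold lines, and the other 3 near the centre.

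Scaling moved all genes together and bears on each direction given here. Scaled to the poly(A) control RNAs, 24 probe sets that read on average 2.07-fold higher on the hepatosphere array, the median of all genes shifted by -0.99 and SLC11A2, FTL and ACO1 stood at -0.48, -0.92 and -0.73. Directions given here are therefore relative to the bulk of genes, and that of FTL was not settled even so. SCARA5, SLC40A1 and TFRC were lower under all 10 alternatives computed for them, between -3.60 and -1.32, between -2.97 and -1.85, and between -1.89 and -0.52. With median centring the median of all genes shifted by -0.23. Of the genes at least 2-fold apart, 58.7% were higher in hepatospheres with the deposited scaling, 38.3% with median centring and 6.3% with poly(A) scaling. The ratio of ACTB signal at the 3′ end to that at the 5′ end was 1.48 in differentiated cells and 2.64 in hepatospheres, and that of GAPDH was 0.987 and 1.04; their part in these differences was not tested.

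**Figure D3:**
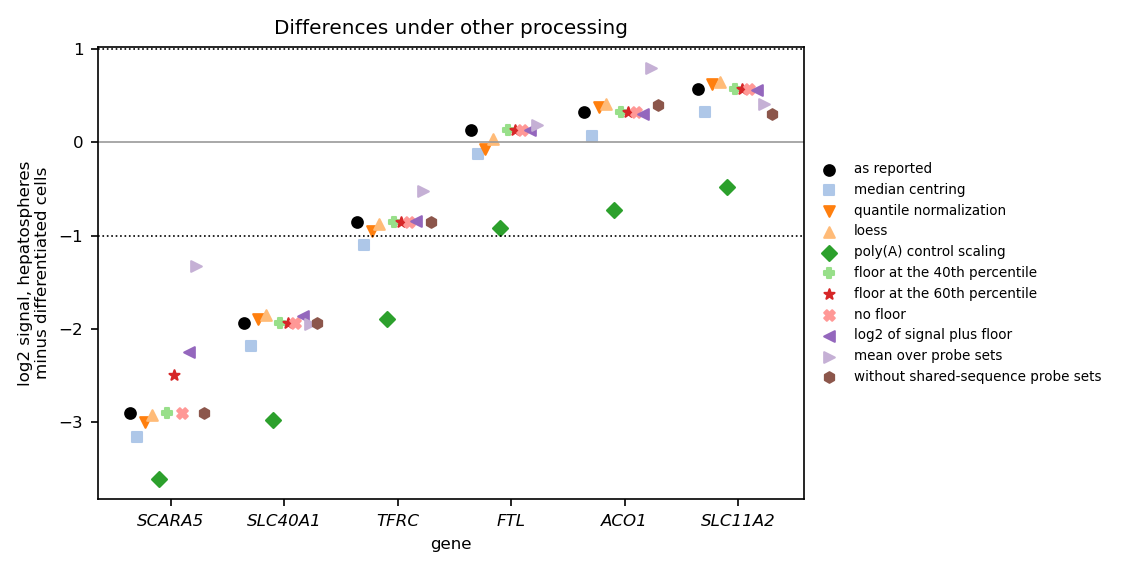
Log2 difference, hepatospheres minus differentiated cells, of the 6 iron genes measured, as reported (black) and under 10 other ways of processing (colours; FTL has 9, because both its probe sets have shared-sequence names); dotted lines mark 2-fold. SLC40A1 and SCARA5 stay beyond 2-fold throughout, TFRC lies between -1.89 and -0.52, and FTL, ACO1 and SLC11A2 go below 0 with poly(A) scaling.

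With the deposited scaling, the wider iron pathway had equal numbers of genes 2-fold apart in each direction. In 7 further lists of iron genes, 62 of 73 genes on the array were measured, of which 7 were at least 2-fold higher and 7 at least 2-fold lower in hepatospheres (11.3% each). These shares are close to the 12.5% and 8.83% of all genes. The median difference of the 62 genes was -0.02. The balance depended on the scaling. Median centring gave 6 higher and 11 lower, beside 9.09% and 14.6% of all genes. Poly(A) scaling gave 3 higher and 32 lower, beside 3.18% and 47.3% of all genes. With the deposited scaling and a 3-fold call, 5 were higher and 1 was lower. The shares of all genes at 3-fold were not computed, so these 2 counts have no background beside them.

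Other uptake genes were the list with the highest median, 0.86 over 8 measured genes, with 3 at least 2-fold higher and 0 lower. For comparison, 12.5% of all genes measured were 2-fold higher and 8.83% lower. STEAP2, a metalloreductase that reduces endosomal iron, gave 251 in differentiated cells against 2236 in hepatospheres, 8.92-fold higher on its single probe set. Melanotransferrin (MELTF), an iron-binding relative of transferrin, was 3.89-fold higher, though the mean over its probe sets put it at 0.83 on the log2 scale. SLC22A17, a receptor for the siderophore-binding protein lipocalin 2, was at least 5.19-fold higher, from 10.7, under the floor, to 436. A floor at the 60th percentile put it at 1.51 on the log2 scale, and the mean over its probe sets put it close to the 2-fold line, still on the called side. Transferrin itself (TF) read 20729 and 37974, a difference of 0.87, and stood at 2.03 without shared-sequence probe sets. STEAP3, the main endosomal ferrireductase of red cell precursors, was at -0.09. TF and the zinc and iron carrier SLC39A14 (0.20) stood below 0 with poly(A) scaling, at -0.17 and -0.84. With the mean over probe sets SLC39A14 stood at 1.36.

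In storage and export beyond the core genes, 1 of 5 measured genes was 2-fold apart, where 12.5% of all genes were higher and 8.83% lower. Ceruloplasmin (CP), the plasma ferroxidase that works beside ferroportin, gave 2379 in differentiated cells against 7384 in hepatospheres, 3.1-fold higher, and all 4 of its probe sets read higher. It stood at 0.59 with poly(A) scaling. CP and SLC40A1, partners in export, thus read in opposite directions. NCOA4, the receptor that takes ferritin to the lysosome, was at -0.07 and the iron chaperone PCBP2 at -0.38, while the membrane ferroxidase HEPH was below the floor on both arrays.

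Genes that control hepcidin went both ways, with 1 of 17 measured at least 2-fold higher and 4 at least 2-fold lower (median 0.15). Among all genes measured the shares were 12.5% higher and 8.83% lower. BMP6, the ligand that drives hepcidin in the liver, gave 276 in differentiated cells against 2162 in hepatospheres, 7.83-fold higher on its single measured probe set. Averaged over its 3 probe sets, BMP6 was below the floor on both arrays. SMAD7 and ID1, both induced by BMP signalling, were 3.06-fold and 2.06-fold lower. The signal transducer SMAD1 was 2.25-fold lower and the receptor BMPR2 2.26-fold lower. Averaged over their probe sets SMAD1 stood at -0.76 and BMPR2 at -0.35, within 2-fold. HAMP, the gene this pathway controls, was below the floor on both arrays.

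Heme genes had 2 of 16 measured at least 2-fold higher and 1 lower (median 0.04). These counts are near the 12.5% higher and 8.83% lower among all genes measured. SLC46A1, a folate carrier first described as a heme carrier, was 2.57-fold higher and FLVCR1, described as a heme exporter and as a choline carrier, 2.22-fold higher. With the mean over probe sets SLC46A1 stood at 0.61, and with median centring FLVCR1 stood at 0.90. Biliverdin reductase (BLVRA) was 2.31-fold lower, with all 5 probe sets lower, and stood at -0.33 without shared-sequence probe sets. The heme oxygenase HMOX1 read 1761 and 1718, a difference of -0.04.

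Mitochondrial iron and iron-sulphur assembly genes were below 0 in 11 of 14, with 2 at least 2-fold lower and 0 higher (median -0.40). All genes measured had a median of 0.05, with 8.83% 2-fold lower and 12.5% higher, and the sign of small differences depends on the scaling. The electron carrier ferredoxin FDX1 was 2.29-fold lower with all 3 probe sets lower, and LYRM4, a partner of the cysteine desulphurase NFS1, was 2.21-fold lower but stood at -0.69 without shared-sequence probe sets. Of the other transcripts known to hold an iron-responsive element, 2 of 4 were measured and 0 were 2-fold apart, the one furthest from 0 being the hypoxia factor EPAS1 at -0.60 (0.25 with the mean over probe sets).

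Genes of 3 programmes known to act on iron genes also differed between the arrays, where 12.5% of all genes measured were 2-fold higher and 8.83% 2-fold lower. Iron demand is tied to proliferation, and 7 of 10 proliferation genes read 2-fold lower or more and 0 higher (median -1.25), among them MCM2 (3.29-fold lower), CCNB1 (2.97-fold), CCNA2 (2.58-fold) and MCM5 (2.51-fold). Hypoxia factors can induce TFRC and CP, and 5 of 9 hypoxia genes read 2-fold higher or more and 0 lower (median 1.32), led by ANKRD37 (11.5-fold higher), P4HA1 (7.33-fold), NDRG1 (5.81-fold) and ADM (4.47-fold). The other 4 lay within 2-fold, BNIP3 and PDK1 at 0.38, EGLN3 at 0.01 and SLC2A1 at -0.04 on the log2 scale. NRF2 can induce ferritin and ferroportin genes, and 4 of 8 NRF2 targets read 2-fold lower or more and 0 higher (median -0.92), namely OSGIN1 (7.21-fold lower), SRXN1 (3.04-fold), GCLM (2.3-fold) and TXNRD1 (2.16-fold). Of the NRF2 targets, 2 read above 0 on the log2 scale, NQO1 (0.05) and ME1 (0.35). The part of these programmes in the iron gene differences was not tested.

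The cell identity behind these readings was checked on marker genes. All 9 hepatocyte markers on the array were measured, 4 at least 2-fold higher and 1 lower in hepatospheres. Of all genes measured, 12.5% were at least 2-fold higher and 8.83% lower. The summed signal of these markers was 97948 in differentiated cells and 189932 in hepatospheres. Bright genes such as APOA2 (9295 and 47101) weigh most in that sum. On the log2 scale 7 of the markers were above 0 and 2 below, AHSG (-1.17) and APOA1 (-0.22). Of 7 erythroid markers, 5 were below the floor on both arrays, and the summed signal was 330 and 564. Macrophage markers were below the floor in 6 of 7, with sums of 124 and 256. Endothelial markers were below it in 4 of 5, the exception being PECAM1 at 3388 and 3787. Of 7 fibroblast and stellate markers 4 were measured, and the sum over all 7 was 436 in differentiated cells and 4116 in hepatospheres, led by LUM, at 1.14 and 2677, and COL3A1, at 42.6 and 679. Their part in the iron gene differences was not tested. In bulk RNA, fewer cells of a kind and less RNA per cell cannot be told apart.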

How the data were processed

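Total RNA was labelled with biotin and hybridised to 1 Affymetrix U133 array per group, per the labels' protocols. The authors deposited intensity values on a linear scale. They are signals of MAS5, per the submitters' processing notes, whose version is not given in the sources at hand. MAS5 scales each array as a whole and leaves weak signals noisy. The trimmed mean, leaving out 2% at each end, was 500.1 on both arrays.

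Probe sets were named through GEO's platform annotation: 41097 had 1 gene symbol, 1801 several. Each gene was represented by its brightest probe set (mean log2 signal over both arrays), control probe sets left out, and the other steps are given with the results. The procedure was tested on simulated data with little noise, in which only bright genes were changed, so changes in weak signals were not covered. Members, gene lists and alternatives were chosen with earlier results of these data known. All core genes are named with every probe set; of each other list, genes 2-fold apart, up to 4 by size, or else the one furthest from 0. Further genes (TF, STEAP3, SLC39A14, NCOA4, PCBP2, HEPH, HMOX1, ID1, NQO1, ME1, BNIP3, PDK1, EGLN3, SLC2A1, the scavenger receptors and marker genes) were named after their values were seen. Values were computed in Python 3.11.15 with pandas 2.3.3, numpy 2.4.6 and statsmodels 0.14.6 and plotted with matplotlib 3.10.9.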

Additional observations from a re-analysis of the deposited data

How the results depend on the processing

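With 1 array per group no spread exists, so the alternatives show only how values move with the processing: 3 other scalings, poly(A) scaling, floors at the 40th and 60th percentiles or none, the floor added to signals before log2, the mean over probe sets, leaving out shared-sequence probe sets, and a 3-fold call. The 2 genes at least 2-fold lower, SCARA5 and SLC40A1, stayed past 2-fold under all 10 alternatives. With the floor at the 40th percentile all 8 genes were measured, 2 were again 2-fold lower, and their median was 0.01 in place of -0.36. With poly(A) scaling the median of the 6 genes was -1.41, and of the 62 other iron genes 32 were lower and 3 higher by 2-fold, with a median of -1.04. Under that scaling 47.3% of all genes measured were 2-fold lower and 3.18% higher, with a median of -0.94. With median centring 11 of the 62 were 2-fold lower and 6 higher, in place of 7 and 7, beside 14.6% and 9.09% of all genes. With a 3-fold call 1 was lower and 5 higher, and the shares of all genes at that call were not computed. No paired analysis was possible because each group has 1 array.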

Other observations

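Genes beside the iron genes on the chromosomes, the 5 measured genes on each side in RefSeq order, were set next to them. The shares to hold beside these counts are 12.5% of all genes measured 2-fold higher and 8.83% 2-fold lower. Of the 10 neighbours of FTL, 6 read 2-fold higher or more in hepatospheres, and the median of all 10 was 1.10 on the log2 scale, while FTL itself stood at 0.13. The neighbours of SLC40A1 ran from -1.55 to 3.35 with a median of 0.20, with 1 at least 2-fold lower and 3 higher. Those of SCARA5 had a median of -0.33, with 2 at least 2-fold lower and 1 higher. The ACO1 neighbours had a median of -0.26, with 1 at least 2-fold lower and 0 higher. Around TFRC and SLC11A2, 0 of 10 neighbours each were 2-fold apart.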
